A study of Equus caballus with 11 samples.

Results

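CpG-dense windows that were methylated in heart, lung and liver of every horse are described here. They were fixed windows of 1000 bp on chromosomes 1 to 31 with at least 30 CpGs listed in any library and at least 50 summed reads in every library, and their methylation level, the share of summed reads with C, was at least 70% in all 11 libraries. Reads were counted at each listed CpG and then summed, so a read over several CpGs counts at each of them. The rule chose 710 windows, which was 37.0% of the 1919 CpG-dense windows with enough reads. Of the others, 755 were unmethylated, with a level of at most 20% in every library, and 454 met neither limit.

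The method was reduced representation bisulfite sequencing (RRBS). It samples short restriction fragments from around CCGG motifs, which enriches for CpGs, and reads unmethylated cytosines as T. Heart (H) was sampled at the left ventricle, lung (L) at the right caudal lobe and liver (LR) at the right lobe, from 4 healthy stallions of cold-blooded breeds, 1 to 2 years old. Heart and lung had 4 libraries each, and liver had 3, from horses 1, 2 and 4. Each library came from a piece of whole tissue, which holds several cell types. The reads were counted on EquCab3.0, for which no gene annotation was used here, so that windows are given by position only and tissue markers were not checked.

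In mammalian genomes most CpGs are methylated, and stretches dense in CpGs are the main exception, since many of them are CpG islands at gene starts that stay free of methylation in nearly all cells. CpG-dense DNA that is methylated in adult tissue is known from tandem repeats such as satellites, from mobile elements, from the bodies and 3′ ends of genes and from the region near chromosome ends. DNMT1 copies methylation to the new strand when DNA is replicated, while DNMT3A and DNMT3B set it on unmethylated DNA.

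The shallowest library was liver 2 (the number is that of the horse), with 3255257 reads summed over listed CpGs. The deepest was liver 1 with 25109840. Without liver 2 the same rule kept 1129 of 3386 windows, all 710 among them. The median member had 126 reads in liver 2 and between 201 and 937.5 in the other libraries. As a check of bisulfite conversion, the share of C at mitochondrial CpGs was 0.336 to 0.373% in heart, 0.613 to 1.69% in lung and 0.904 to 1.20% in liver.

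The members held 30 to 94 listed CpGs each, with a median of 46, against a median of 43 in the unmethylated windows. The levels chose the members and are given as a description. The level was at least 80% in every library in 441 members and at least 90% in 71. Members just inside the limit were chr26:81001-82000, with a lowest level of 70.08% in liver 2, chr12:34731001-34732000 with 70.09% in heart 3 and chr9:37245001-37246000 with 70.09% in heart 3. Just outside it were chr31:1-1000 with 69.95% in liver 1, chr26:10001-11000 with 69.91% in liver 2 and chr7:705001-706000 with 69.91% in heart 4. The limit thus cut through a continuous range of levels, with 120 windows whose lowest library lay between 60 and 70% and 269 members whose lowest library lay between 70 and 80%.

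The 6 members with the most CpGs had levels above 85% in every library. The window chr7:45674001-45675000 held 94 CpGs, and its level was 94.6, 95.3, 95.4 and 92.4% in heart of horses 1 to 4, 94.4, 96.4, 98.7 and 95.9% in lung, and 96.4, 96.1 and 96.9% in liver of horses 1, 2 and 4. The window chr5:41761001-41762000 held 89 CpGs with at least 606 reads in each library, and all its levels lay between 91.6 and 93.8%. These spreads are small against the 30 points that the rule allows. Next came chr10:18503001-18504000 with 87 CpGs and levels of 86.3 to 93.02%, chr3:35845001-35846000 with 85 CpGs and 85.1 to 95.3%, chr7:2872001-2873000 with 85 CpGs and 90.2 to 96.0%, and chr7:3668001-3669000 with 82 CpGs and 87.1 to 97.8%. In chr3:35845001-35846000 the 3 liver libraries, at 93.8, 95.3 and 92.6%, lay above all heart and lung libraries, of which the highest was at 90.8%. Not all CpGs of that window were as methylated, and the one at chr3:35845436 was at 59.6, 50, 56.3 and 50% in heart, 69.1, 62.1, 70 and 59.2% in lung, and 86.9, 79.3 and 72.7% in liver.

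Single CpGs inside the members were mostly as methylated as the windows. The window levels pool these CpGs, so the rule itself favours high levels, and the shares are a description. Of 4295 CpGs with at least 10 reads in every library, which lay in 520 members, the median pooled level was 92.4%, and 93.4% of them were at 70% or more. Intermediate levels between 20 and 70% were found at 5.49% of them and levels of 20% or less at 1.14%. In 22 CpGs the level was at most 20% in every library, although the window around them was methylated. Over all 68147 such CpGs of chromosomes 1 to 31, 65.6% were at 70% or more and 12.9% at 20% or less. At 5 of the CpGs in members, or 0.116%, all libraries of 1 horse were at least 30 points below all libraries of the others, against 0.235% over all sites.

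Most members did not lie alone. Of the 710, 335 directly adjoined another member and 506 lay within 100 kb of one. When members up to 100 kb apart were joined, they formed 255 clusters, of which 204 were single windows, and the 6 largest clusters held 311 members, or 43.8%. The largest lay at chr8:2147001-2251000, where 81 of 82 CpG-dense windows were members. The next were chr1:67462001-67576000 with 52 of 62 windows, chr2:49003001-49100000 with 48 of 50, chr28:1-168000 with 48 of 60, chr26:2001-89000 with 43 of 47 and chr20:1-60000 with 39 of 42. No unmethylated window lay inside any of these clusters. The longest unbroken rows of members were chr8:2192001-2218000 with 26 windows and levels of 73.2 to 97.0%, chr8:2231001-2251000 with 20 windows and 75.5 to 95.7%, and chr20:31001-47000 with 16 windows and 70.3 to 94.7%.

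CpGs in the 6 largest clusters were set at multiples of 22 bp, a regular ladder of the kind that a tandem repeat of short units gives. In chr8:2147001-2251000, 23.5% of the 5085 listed CpGs had another CpG exactly 22 bp downstream, against a mean of 3.36% at 21 and 23 bp. In the other clusters the shares at 22 bp were 21.7% on chromosome 1, 24.9% on chromosome 2, 20.7% on chromosome 28, 21.96% on chromosome 26 and 21.7% on chromosome 20, with 3.12 to 3.72% at 21 and 23 bp. The same spacing thus recurred on 6 chromosomes. Counted over CpG pairs 10 to 230 bp apart, the median share at multiples of 22 bp was 17.1 to 19.2% in these clusters, and 4.36% in unmethylated windows, where an even spread of distances would give 4.52%.

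**Figure D1:**
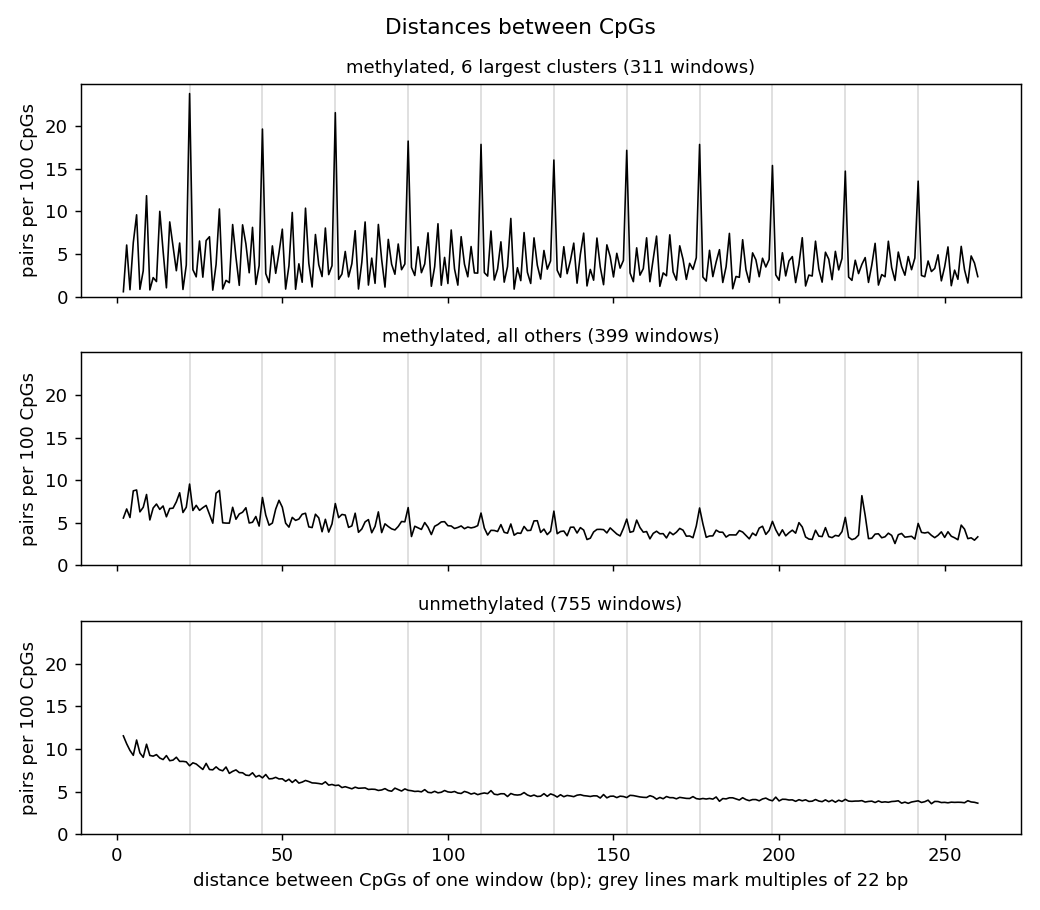
Pairs of CpGs of a window per 100 CpGs (vertical axis) by the distance between them in bp (horizontal axis), for the 311 members in the 6 largest clusters, the other 399 members and the 755 unmethylated windows. Grey lines mark multiples of 22 bp, where the clusters peak while the unmethylated windows decline smoothly. The other members, of which 51 have the ladder, show peaks at 22 bp (9.55) and at 225 bp (8.18).

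A ladder with at least 10% of such pairs at multiples of 22 bp was present in 358 of the 710 members, or 50.4%. Of the 755 unmethylated windows 0 had it, of the 454 remaining windows 47 had it, and over all 1919 CpG-dense windows the share was 21.1%. The CpG positions took part in the rule only through their number, and the measure was chosen after the spacings were seen, so no test is given. Of the 358 members, 307 lay in the 6 largest clusters, and the others included 14 at chr13:13025001-13041000 and 13 at chr15:1001-131000, 2 further clusters in which the ladder was found. In chr13:13025001-13041000 the CpGs also recurred at 3825 bp, where 28.2% had a partner, against a median of 3.89% over all distances of 300 to 8000 bp. The ladder members lay on 13 chromosomes. Without the liver 2 library, 434 of 1129 members had the ladder, or 38.4%, and again 0 of the unmethylated windows, which were then 1453. The share over all CpG-dense windows was then 14.6%.

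A dispersed group had another spacing. The commonest run of 6 successive CpG distances, 5, 7, 14, 5, 19 and 11 bp read in either direction, was shared by 76 CpG-dense windows on 25 chromosomes, of which 70 were members, 0 unmethylated and 6 remaining. All 70 were single windows, more than 100 kb from the next member. In 50 of them at least 50% of the CpGs had a partner at 225 or 226 bp. The 3 members whose CpGs most often shared a spacing were of this group: chr20:22228001-22229000 with 97.1% of 34 CpGs at 225 bp, chr13:43393001-43394000 with 92.1% of 38 CpGs at 226 bp and chr24:350001-351000 with 91.2% of 34 CpGs at 226 bp. The same CpG pattern at many single places is known of mobile elements, but the windows were not matched to any sequence here.

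The remaining 282 members had neither the ladder nor the dispersed run. They lay on all 31 chromosomes, 130 of them as single windows. Some belonged to clusters with other spacings, such as chr1:111430001-111446000, where all 15 CpG-dense windows were members with levels of 88.7 to 97.7% and 15.1% of CpGs had a partner at 4610 bp, against a median of 3.98% over all distances of 300 to 8000 bp. In total, 471 members, or 66.3%, shared some run of 6 successive CpG distances, at least 4 of them different, with another CpG-dense window, against 17.9% of the unmethylated windows and 39.0% of all CpG-dense windows. The RRBS reads were 75 bp long and were counted where they mapped to 1 place, so copies that are identical over a read are not seen.

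Members lay near the assembled start of chromosomes more often than the other CpG-dense windows. Within the first 1 Mb lay 24.9% of members, 1.59% of unmethylated windows and 12.2% of all CpG-dense windows, and within the first 5 Mb 47.2, 9.14 and 26.6%. Horse chromosomes 14 to 31 are acrocentric, and 147 of the 177 members in the first 1 Mb lay on these. Of all CpG-dense windows in the first 1 Mb, 183 of 235 lay on them too. Among members outside the 6 largest clusters it was 17 of 47, so the count for members came mostly from these clusters. Within 5 Mb of the last listed CpG of a chromosome the share was 7.32% of members, 9.93% of unmethylated windows and 9.64% of all. Outside the 6 largest clusters the other 399 members had 11.8% in the first 1 Mb, 31.1% in the first 5 Mb and 13.03% in the last 5 Mb. The shares of all CpG-dense windows still hold the windows of these clusters, so they are not a like background for the 399. The unmethylated windows, none of which lay in these clusters, had 1.59, 9.14 and 9.93%. Of the chromosomes, 8 held 104 members, 1 held 80 and 7 held 72, while 31 held 1 of 13 CpG-dense windows.

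The neighbouring windows of members that were compared were methylated too, and the mean level around unmethylated windows rose with distance. For scale, the median level over all 68147 CpGs with at least 10 reads in every library was 81.5%, a measure of single CpGs. Only neighbours with at least 20 reads in every library and outside the same class were used, so neighbours of members had too few CpGs, too few reads or too low a level to be members themselves. In the same way CpG-dense unmethylated neighbours were left out around unmethylated windows, so part of the rise there comes from this choice. At a distance of 1 kb from a member the mean level over 243 such windows was 80.9% in heart, 82.6% in lung and 81.7% in liver, with SDs between libraries of 0.570, 0.565 and 1.05. With at least 50 reads the mean over all libraries was 79.9% in place of 81.8%. At 10 kb it was 77.9% over 160 windows. Next to the 204 single members it was 84.3% at 1 kb over 78 windows and 68.2% at 10 kb over 16 windows. From the unmethylated windows the mean rose from 2.28% to 13.5% at 1 kb over 223 windows and 56.9% at 10 kb over 63 windows. At 1 kb, 66.8% of these neighbours were still at 20% or less in every library, and at 10 kb 20.6%.

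**Figure D2:**
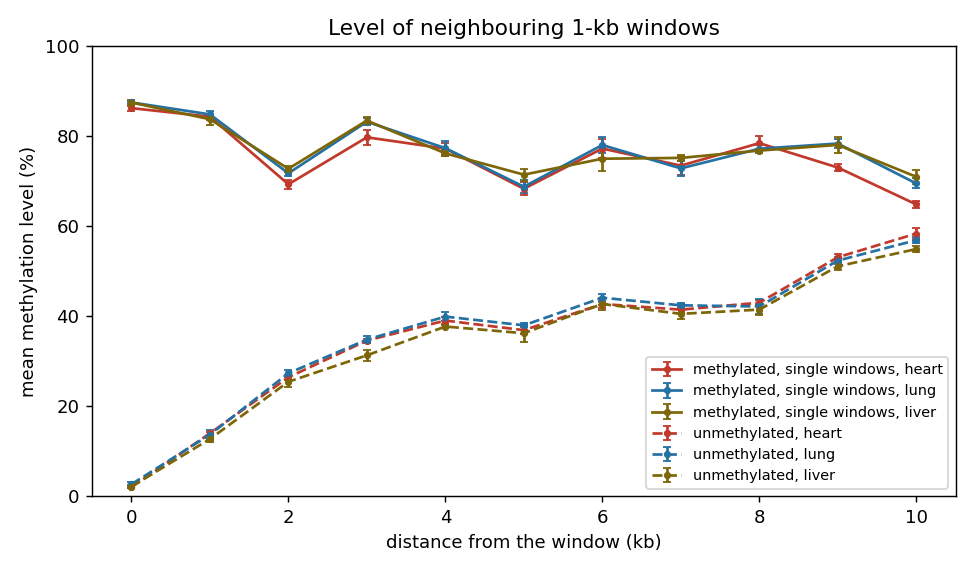
Mean methylation level in percent (vertical axis) of 1-kb windows by distance in kb (horizontal axis) from the 204 single methylated windows (solid) and the 755 unmethylated windows (dashed), per tissue, with SD over 4 heart, 4 lung and 3 liver libraries. Beside single methylated windows the level is 84.3% at 1 kb and 68.2% at 10 kb, and beside unmethylated windows it rises from 13.5 to 56.9%.

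Between tissues, the mean level over the 710 members was lowest in heart. It was 86.3 ± 0.369% (SD, n = 4) there, with 85.7, 86.5, 86.4 and 86.5% in horses 1 to 4. In lung it was 87.5 ± 0.218% (n = 4), with 87.7, 87.6, 87.3 and 87.3%. In liver it was 87.4 ± 0.103% (n = 3), with 87.5, 87.3 and 87.4% in horses 1, 2 and 4. The heart libraries did not overlap with lung or liver, while lung and liver overlapped. The rule used every one of these levels, so the differences are a description without a test. The tissue mean was lowest in heart in 412 of 710 members, or 58.0%, and in 50.8% of all CpG-dense windows. The median depth-weighted difference was 1.10 points for lung minus heart, 0.0895 points for lung minus liver and -1.10 points for heart minus liver.

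The share of C at mitochondrial CpGs was also lowest in heart, as given above, and so was the mean level of the unmethylated windows, at 2.01 ± 0.0674% against 2.66 ± 0.521% in lung and 2.14 ± 0.273% in liver. The part of incomplete conversion in the difference was not tested. Within the groups by CpG spacing the heart mean was below the others each time. In the 358 ladder members it was 85.6 ± 0.331%, against 86.6 ± 0.364% in lung and 86.4 ± 0.213% in liver. In the 70 members with the dispersed run it was 84.1 ± 1.01, 85.3 ± 0.396 and 84.8 ± 0.646%, where heart 3 at 85.4% lay among the lung libraries. In the 282 others it was 87.7 ± 0.698, 89.1 ± 0.102 and 89.4 ± 0.343%. In each of the 6 largest clusters heart was lowest as well, with 86.2 ± 0.346% in heart, 87.4 ± 0.514% in lung and 87.5 ± 0.147% in liver at chr8:2147001-2251000. At chr15:1001-131000, with 13 members, the order was the reverse, with 87.3 ± 1.39% in heart, 86.8 ± 0.626% in lung and 85.6 ± 0.594% in liver. The 282 members with neither pattern also held 52 of the 71 members at 90% or more in every library, the ladder members 19 and the dispersed group 0.

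**Figure D3:**
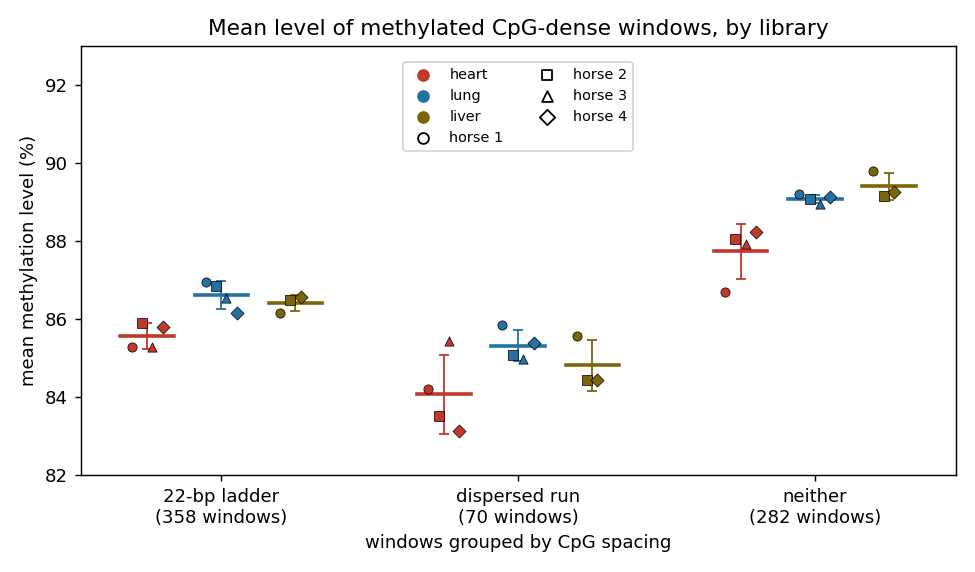
Mean methylation level in percent (vertical axis) in each library for members with the 22-bp ladder, with the dispersed run and with neither (horizontal axis). Points are libraries, colours tissues and shapes horses, bars the mean and SD, and the vertical axis starts at 82%. Heart had the lowest mean in every group, and its libraries overlapped with those of lung and liver only in the dispersed group.

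Within the 30 points that the rule allows, most members varied little. The range between the highest and the lowest library had a median of 8.24 points, with quartiles of 5.68 and 11.5, and was 26.8 at most. In chr7:3611001-3612000 the level was 71.3% in liver 4 and 98.1% in liver 2, with 82.8 to 91.7% in the others, and in chr15:3480001-3481000 it was 71.7% in heart 1 and 85.5 to 98.3% in the others. In chr20:64739001-64740000 it was 71.2% in liver 2, which had the fewest reads of all libraries, 79.7% in liver 4 and 84.0 to 96.6% in the others. The fewest reads in any library were 54, 50 and 52 in these windows. The fourth, chr7:1730001-1731000, differed between tissues and is described with the comparison of lung and liver.

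Tissue differences of single windows were called by a logistic quasi-likelihood test on read counts, with its dispersion moderated by limma across all 1919 CpG-dense windows, with a Benjamini-Hochberg adjusted p under 0.05 and 10 points or more between the pooled levels. In LvsH 6 members were called, all higher in lung, while 3.02% of all CpG-dense windows were called and 1.88% were called higher in lung. In LvsLR 1 member was called, lower in lung, with 2.45% of all windows called and 1.62% lower in lung. In HvsLR 9 members were called, all lower in heart, with 4.53% of all windows called and 2.97% lower in heart. Since the rule holds every level between 70 and 100%, nothing is read from these shares. Libraries of the tissues did not overlap in 64 members in LvsH, in 50 in LvsLR and in 92 in HvsLR. These were 9.01, 7.04 and 13.0% of members, against 11.7, 10.3 and 16.3% of all CpG-dense windows. With the horse number as a block, 5, 0 and 4 members were called. The 3 comparisons share their libraries. The p-values of the main test rest on the spread between libraries within a tissue, counting error included, moderated over all 1919 windows. They leave out the pairing by horse, which only the fits with the block use. The rule used the same levels, so the p-values of single members and of their CpGs are given as a description.

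The 12 members called in any comparison all belonged to the 282 with neither the ladder nor the dispersed run. Of the 12, 5 lay on chromosome 7, which held 72 of the 710 members. No ladder member lay on chromosome 7, so its share of the 282 was higher than its share of the 710, and nothing is read from the 5. No test of this was made. In the 358 ladder members the largest difference was 7.63 points in LvsH, 9.19 in LvsLR and 9.63 in HvsLR, and in the dispersed group it was 7.66, 4.39 and 4.38, so that 0 members of either group reached 10 points.

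The largest difference was in chr7:3627001-3628000, with 39 CpGs. Its level was 71.7, 74.8, 73.6 and 70.9% in heart of horses 1 to 4, 90.6, 88.7, 91.8 and 90.6% in lung, and 91.9, 89.4 and 93.3% in liver of horses 1, 2 and 4. Heart lay below every lung and liver library, and lung and liver overlapped. The difference was 17.0 points for lung minus heart, with an adjusted p of 0.000691 in the moderated test, and -19.1 points for heart minus liver, with 0.000497. Both were called without each library in turn, with the block and in edgeR.

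In chr18:3892001-3893000, with 39 CpGs, the level was 73.0, 71.6, 75.2 and 72.6% in heart, 86.0, 82.5, 88.0 and 86.0% in lung, and 83.5, 80.4 and 85.9% in liver. Heart was again below all others, by 12.0 points from lung (adjusted p 0.00257 in the moderated test) and by 11.5 points from liver (0.00303), and both calls were made in every alternative at this threshold. In chr18:3402001-3403000, with 30 CpGs, it was 70.7, 70.6, 75.0 and 74.9% in heart, 84.9, 81.3, 84.8 and 85.8% in lung, and 82.5, 80.5 and 80.8% in liver. The difference from lung was 12.0 points (adjusted p 0.00523). From liver heart differed by -9.84 points (adjusted p 0.0140), just under the 10 points needed.

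In chr7:757001-758000, with 33 CpGs, heart had 82.2, 82.9, 79.95 and 82.8%, lung 92.0, 94.1, 93.7 and 88.1%, and liver 93.1, 95.2 and 94.6%. Heart lay below every other library. The difference was 10.3 points for lung minus heart (adjusted p 0.0103 in the moderated test), which fell under 10 points without heart 3 or without lung 2, and -11.7 points for heart minus liver (0.00165), called without each library in turn. In chr7:963001-964000 heart had 79.2, 74.7, 77.6 and 78.8% and liver 89.8, 90.7 and 90.1%, a difference of -12.3 points (adjusted p 0.00789). Lung 4, at 74.5%, lay among the heart libraries there, while the other lung libraries were at 87.0 to 89.4%. With the block the adjusted p was 0.0523, and the member was not called without liver 1.

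The window chr25:19235001-19236000, with 32 CpGs, had the most called CpG sites. Its level was 70.9, 71.0, 81.0 and 72.5% in heart, 86.3, 87.4, 82 and 81.6% in lung, and 86.5, 82.3 and 86.3% in liver. Heart 3 stood above the other heart libraries and just below the lowest lung library. The difference was 11.5 points in LvsH (adjusted p 0.0365) and -12.4 points in HvsLR (0.0364), and each was called in only 1 of the alternatives that leave out a library, the one without heart 3.

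In LvsLR the called member was chr7:1730001-1731000, with 30 CpGs. Its level was 83.8, 71.8, 82.4 and 76.5% in lung and 92.4, 95.8 and 96.2% in liver, which did not overlap, and 87.7, 87.2, 86.8 and 77.9% in heart. Lung was lower by 17.3 points with an adjusted p of 0.0269, and the call was kept in 2 of 7 fits without a library, those without lung 1 or lung 3, and lost with the block (adjusted p 0.0640). Other members called were chr7:3155001-3156000 in LvsH, at 10.2 points, and in HvsLR chr3:116084001-116085000, chr25:33188001-33189000, chr2:47153001-47154000 and chr13:4239001-4240000, at -11.4, -11.2, -11.2 and -10.2 points, the last 4 not called with the block. Without each library in turn, chr7:3155001-3156000 was kept in 6 of 8 fits, and the last 4 in 1, 5, 2 and 3 of 7. By edgeR the windows chr7:3155001-3156000, chr3:116084001-116085000 and chr2:47153001-47154000 were not called.

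**Figure D4:**
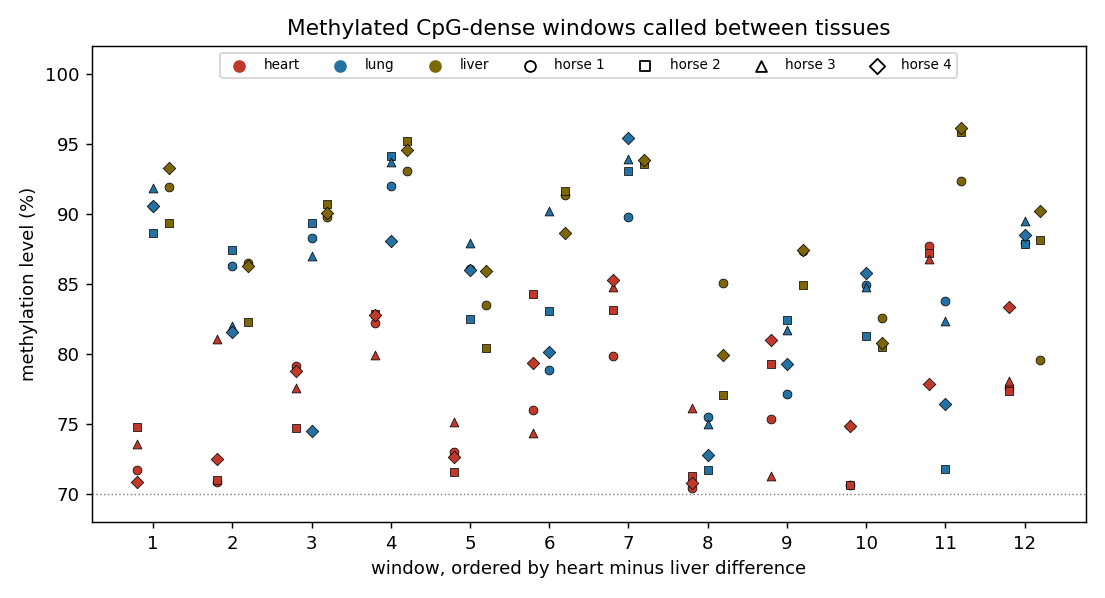
Methylation level in percent (vertical axis) of each library in the 12 members called between tissues, ordered by the heart minus liver difference (horizontal axis, 1 the most negative). Colours are tissues, shapes horses, and the dotted line is the limit of 70%. Heart has the lowest mean in every window except window 11, and that window is the member lower in lung than in liver.

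Single CpGs of members were tested where no library of either tissue had under 10 reads. Differentially methylated sites (DMSs) were those with 25 points or more and an adjusted p under 0.01. In LvsH 3 of 5865 such sites were DMSs, with 2.71% over all sites tested. In LvsLR 0 of 4832 were, with 3.82% over all sites, 240 at an unadjusted p below 0.05, 0 by edgeR and 1 by edgeR with the block. In HvsLR 12 of 4432 were, with 5.84% over all sites, and 9 of the 12 were lower in heart, with 2.84% over all sites. As these sites lie in windows chosen by level, nothing is read from the shares.

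The DMSs lay in 9 members. In chr25:19235001-19236000 were 5 of them, all in HvsLR. The CpG at chr25:19235127 was at 47.5, 45.7, 45.2 and 50% in heart and 92.3, 90 and 83.3% in liver, a difference of -42.7 points (adjusted p 7.7e-05 in the moderated test). The CpG at chr25:19235675 went the other way, with 84.6, 89.7, 91.3 and 83.3% in heart and 52.9, 41.7 and 35.7% in liver, a difference of 40.7 points (adjusted p 0.000846). These CpGs of the same window thus differed in opposite directions between heart and liver. The lung libraries were at 47.1 to 80% at chr25:19235127 and 85 to 100% at chr25:19235675. The other DMSs of the window lay between them and were lower in heart. They were chr25:19235136, chr25:19235300 and chr25:19235368, with -35.1, -42.2 and -26.1 points for heart minus liver.

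Of the other members with more than 1 call, chr7:2819001-2820000 held a CpG at chr7:2819369 that was a DMS in both LvsH and HvsLR. It was at 23.4, 61.1, 57.7 and 40% in heart, 90.3, 90.7, 73.7 and 75% in lung, and 84.0, 90.9 and 95.8% in liver. Heart lay below all others, by 41.7 points from lung (adjusted p 0.00154 in the moderated test), and heart minus liver was -44.95 points (0.00110). In chr18:76740001-76741000, 2 CpGs 10 bp apart were lower in heart than in liver, by 30.5 and 25.7 points. Within the ladder cluster chr20:1-60000, the CpG at chr20:7749 was at 21.3, 0, 0 and 5% in heart, 56.6, 48.4, 56.0 and 47.1% in lung, and 56.3, 16.7 and 23.2% in liver, so that it stood far below the windows of its cluster in all tissues.

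The number of reads that fell in the members was not used by the rule except for the minimum of 50, and was compared as a share of all reads on chromosomes 1 to 31. Both counts were summed over listed CpGs, so windows with more CpGs weigh more. The share was 2.79, 3.49, 3.64 and 3.27% in heart of horses 1 to 4, 4.98, 4.54, 5.36 and 3.77% in lung, and 2.91, 5.11 and 4.22% in liver of horses 1, 2 and 4. Every lung library lay above every heart library, and liver overlapped with both. The mean and SD were 3.30 ± 0.368% over 4 heart libraries, 4.66 ± 0.681% over 4 lung libraries and 4.08 ± 1.10% over 3 liver libraries. The difference of 1.37 points between lung and heart had p = 0.0286 in an exact 2-sided permutation test, the smallest value that 4 against 4 libraries allow, and 0.0857 after Benjamini-Hochberg adjustment over the 3 comparisons, so it did not pass 0.05. Lung was higher in 4 of 4 horses, for which exact sign flips allow no p below 0.125. In LvsLR lung was 0.582 points higher, with an exact permutation p of 0.429, also after adjustment. In HvsLR the difference was -0.785 points, with an exact permutation p of 0.229 and 0.343 after adjustment.

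Of the groups by CpG spacing, the ladder members differed most between lung and heart. They took 1.91 ± 0.324% of reads in heart, 3.20 ± 0.660% in lung and 2.34 ± 0.736% in liver, a ratio of lung to heart of 1.68. The 282 members with neither pattern took 1.21 ± 0.115, 1.22 ± 0.140 and 1.52 ± 0.369%, a ratio of 1.01, and the dispersed group 0.182 ± 0.0204, 0.244 ± 0.0425 and 0.216 ± 0.0388%, a ratio of 1.34. The groups were formed after the data were seen, and these ratios carry no test. As a share of reads in CpG-dense windows alone, the members took 45.7 ± 2.83% in heart, 52.8 ± 4.22% in lung and 44.7 ± 2.36% in liver, with an exact permutation p of 0.0857 for LvsH, 0.129 after adjustment. Copy number, fragment selection and mapping cannot be told apart in these counts, and the depth of the libraries differed as given above.

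**Figure D5:**
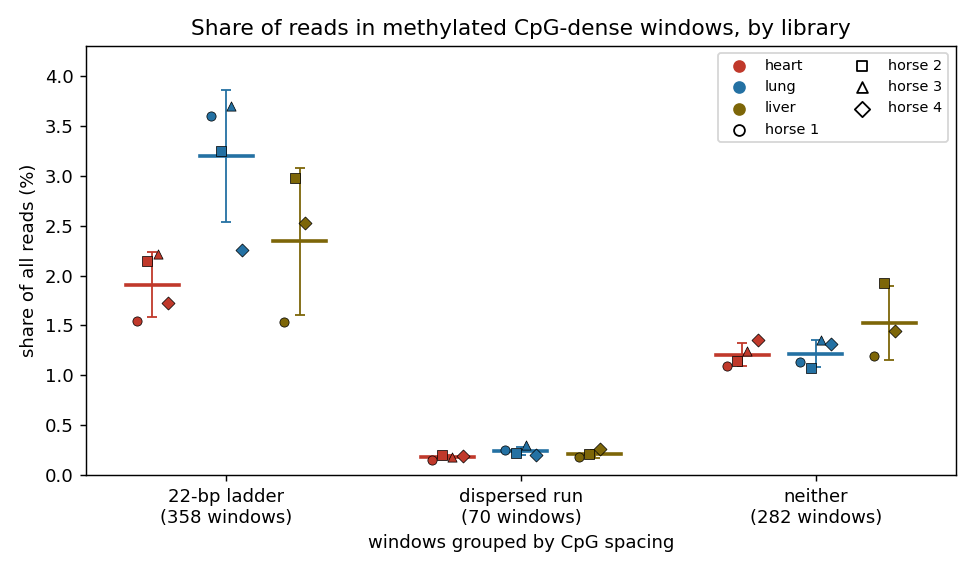
Share of all reads on chromosomes 1 to 31, summed over listed CpGs, in percent (vertical axis, from 0) in each library. Members are those with the 22-bp ladder, with the dispersed run and with neither (horizontal axis). Points are libraries, colours tissues and shapes horses, bars the mean and SD. The lung libraries are higher than the heart libraries in the ladder group, at 2.25 to 3.70% against 1.55 to 2.21%, and overlap with them in the members with neither pattern.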

How the data were processed

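The deposited files list CpG cytosines by strand with 2 kinds of value, the read count (coverage) and the percent of those reads showing C or T. Per the study's methods, libraries from the Ovation RRBS Methyl-Seq System were read on a NextSeq 500 as single 75-bp reads, and uniquely mapped reads on EquCab3.0 were used. FastQC and BSMAP stand in the submitters' processing notes, with versions not given in the sources used here. No listed position had under 5 reads, and each file holds 1 animal's tissue.

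Methylated reads were recovered as coverage times percent of C, whole within 0.05 at 99.8% or more of the positions of each library. Strands were combined, which left 3123176 CpGs and 444129 windows of 1000 bp, of which 15390 held at least 30 CpGs. Windows and sites were tested by logistic regression of read counts with limma 3.58.1 (squeezeVar) moderation, the dispersion kept at 1 or above and its prior fitted on levels of 2 to 98%. Alternatives used edgeR 4.0.16, R 4.3.3 and other limits. Numbers pair the libraries because labels give the same horse. Deviations from tissue means over all CpG-dense windows correlated at 0.0988 to 0.351 within a horse, and 0.0676 was the highest value between horses. Over the members alone, heart and liver overlapped, with 0.0384 to 0.125 within a horse and up to 0.0924 between horses. In the unmethylated windows every comparison overlapped, with -0.101 to 0.0876 within a horse and up to 0.189 between horses for lung and heart. Over members, pairs of libraries of a tissue had a chi-square per degree of freedom of 2.02 to 3.52 against binomial counts. Reads counted at several CpGs and PCR copies raise this value by themselves, so it cannot show whether a library is a repeat. Each library was taken as a separate sample by its label. The test was also run on simulated counts, drawn independently and without multiply counted reads or PCR copies, so nothing is concluded from that run. PCR copies are not removed, so counting error is understated.

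Members and lists were chosen with earlier results of these data known. Windows named were the 6 with most CpGs, the 4 with the largest range, the 3 longest rows of adjacent members, the 3 with the largest called difference per comparison, the 3 with most called sites, the 3 with the most shared spacing and the 3 on each side of the 70% limit. Clusters, the ladder, shared runs, the groups by spacing and all other positions named were chosen after the values were seen. Python 3.11.15, numpy 2.4.6, pandas 2.3.3 and matplotlib 3.10.9 were used.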

Additional observations from a re-analysis of the deposited data

Results flagged for a closer look

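Dixon's limit for 4 libraries was passed in 6 of 80 groups of heart or lung libraries examined, where chance flags about 1 in 20. In the cluster chr26:2001-89000 the mean level in lung 4 was 85.5%, below 86.4 to 86.5% in the other lung libraries. In chr7:1730001-1731000 heart 4 was at 77.9%, below 86.8 to 87.7%, and in chr7:963001-964000 lung 4 was at 74.5%, below 87.0 to 89.4%. In chr7:3155001-3156000 heart 4 was at 83.3%, above 77.4 to 78.0%. In chr25:19235001-19236000 heart 3 was at 81.0%, above 70.9 to 72.5%, and in chr2:47153001-47154000 heart 3 was at 76.1%, above 70.4 to 71.3%.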

How the results depend on the processing

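The number of members was 710. It was 441 at 80% or more, 417 with at least 100 reads in every library, and 710 to 1129 when 1 library was left out, with 1129 without liver 2 and at most 761 without any other. In the other alternatives for this number (60%, 40 CpGs, unweighted levels, a grid shifted by 500 bp, CpGs over 1000 reads left out) it was 830, 476, 693, 687 and 708. Without liver 2 the ladder was present in 38.4% of members, and 41.5% lay in the first 5 Mb. The distal share within 2 Mb was 3.24%, and 55.1% of members had 40% of CpGs at 1 spacing.

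Members called were 6, 1 and 9 in LvsH, LvsLR and HvsLR. With an adjusted p below 0.01 and 25 points they were 0, 0 and 0, and with at least 100 reads 4, 0 and 3. With the replicate block by horse they were 5, 0 and 4, and with edgeR and the block 4, 1 and 4. Without each library in turn they were 4 to 7, 0 to 2 and 3 to 10. In LvsLR leaving out lung 1 gave 2, and leaving out lung 2, lung 4 or any liver library gave 0. In HvsLR leaving out heart 1 gave 4 and liver 1 gave 3.

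DMSs in members were 3, 0 and 12. With at least 20 reads they were 0, 0 and 3, at an adjusted p below 0.05 4, 2 and 18, and with edgeR and the block by horse 3, 1 and 11. Without each library in turn they were 2 to 6, 0 to 3 and 6 to 14. In LvsH leaving out heart 2 gave 6 and heart 3 gave 5, in LvsLR lung 1 gave 1, liver 1 gave 3 and liver 4 gave 2, and in HvsLR liver 1 gave 6.

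The read share of lung minus heart stayed at 1.13 to 1.66 points without each library, and at 1.37 points paired by horse. Lung minus liver was -0.00159 to 1.09 points, the lowest without liver 1, and 0.350 points paired by horse. Heart minus liver was -1.37 to -0.272 points, -0.897 points paired by horse, and turned to 1.01 points as a share of reads in CpG-dense windows. No adjusted p was under 0.05 in any of these alternatives. The causes of these changes were not tested. Depth limits single members most in liver 2, where the median member had 126 reads.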
